A study of Mus musculus with 12 samples.

Results

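Germ cells of the male mouse gonad at E12.5 (E for embryonic day) were compared with the migrating primordial germ cells (PGCs) of E9.5. Of the 12 libraries of the study, 4 enter this comparison, 2 of each group. All 26218 genes of the deposited table were considered, and the 10856 with at least 5 RPM (reads of a gene scaled to the reads of its library) in at least 2 of the 12 libraries were tested. Both groups came from embryos of a 1:1 mix of ICR and C57BL/6 that carried a Stella-EGFP reporter, and cells were sorted for its green fluorescence. Stella is the gene Dppa3. The male cells were labelled by sex, whereas the sex of the E9.5 embryos was not given, so the difference is not a change within males alone. RNA was read by 3′-end sequencing of cDNA amplified from 1 ng, and female germ cells of E12.5, prepared in the same way, served to ask which changes differed between the sexes. The remaining 6 libraries are of PGC-like cells made in culture from C57BL/6 embryonic stem cells. Nothing in the labels says whether the libraries of a group came from separate litters. The p-values therefore speak of the spread among these libraries alone, which may be technical.

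Primordial germ cells arise next to the posterior primitive streak, move through the hindgut and its mesentery, and settle in the genital ridges. There they switch on a germ cell programme that includes RNA-binding proteins, the piRNA pathway against transposons, and proteins that chromosomes need at meiosis. In the ovary the cells then enter meiosis. In the testis they do not, and pass through a phase of Nodal signalling before mitotic arrest.

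Reads in genes, estimated from the smallest steps of the deposited values, numbered 2728173 and 4251559 in the E9.5 libraries and 3207582 and 3331072 in the male libraries. A value of 0 therefore allows up to 1.10 and 0.708 RPM at E9.5, and up to 0.938 and 0.903 RPM in males (3 reads, counting error only). The 10 germ cell markers checked were above 0 in all 4 libraries, and their levels summed to 3615 and 3590 RPM at E9.5 and 7549 and 7660 RPM in males. The rise of the sum lay in Dppa3, the gene of the reporter, Dazl and Ddx4. In the test described below, these 3 were called higher, 3 lower and 4 not called, with a median log2 change of 0.02. Over all tested genes 20.0% were called higher and 17.6% lower. Markers of several other tissues were higher at E9.5. Of 12 erythroid genes, 11 were higher in both E9.5 libraries than in both male ones, against 28.9% of the 19998 genes above 0 in any library, and the list summed to 4610 and 4081 RPM against 14.1 and 20.6 RPM. The sums of 13 fibroblast and mesenchyme genes were 343 and 342 RPM against 93.9 and 106 RPM, those of 15 hindgut and endoderm genes 105 and 114 RPM against 20.0 and 29.8 RPM, and those of 8 muscle genes 44.1 and 51.3 RPM against 3.83 and 6.08 RPM. Of 19 genes of gonadal somatic cells, Amh, Cyp17a1 and Cyp11a1 were listed at 0 in all 4 libraries and the list summed to 85.7 and 76.1 RPM at E9.5 and 49.2 and 50.7 RPM in males. Members of this list went in both directions. Star, Dhh, Nr5a1 and Hsd3b1 were higher in both male libraries than in both E9.5 ones. Sox9, Gata6, Lhx9, Emx2, Fst, Nr2f2 and Aard were lower in both. Star went from 2.94 and 0.708 RPM to 7.81 and 3.91 RPM and was called higher in the test described below. In bulk samples, fewer cells of a type and less RNA per cell cannot be told apart. ERCC spike-in RNAs made up 0.137% and 0.0627% of the gene total at E9.5 and 1.44% and 1.64% in males.

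A total of 4089 genes (37.7%) differed at an adjusted p under 0.05 in limma. Of all tested genes, 20.0% (2176 genes) were called higher and 17.6% (1913 genes) lower in males. With median centring 1934 were called higher and 2111 lower, so the more frequent direction turned (47.8% of calls higher in place of 53.2%). Changes of at least 2-fold on the log2(RPM + 1) scale were called in 939 genes upward (8.65%) and 1128 downward (10.4%). At least 8-fold, 62 genes were higher and 133 lower, and at least 16-fold, 18 were higher and 35 lower. Both libraries of one group lay above both of the other in 74.6% of tested genes (40.5% with males higher, 34.2% with males lower), so a lack of overlap alone marks little with 2 libraries a group. Without 1 of the 4 libraries, between 2509 and 2842 genes were called. The median change over all tested genes was 0.05. The filter would not have kept 371 genes without the E9.5 libraries or 148 without the male ones. Such genes entered the test through the group where they were high, so those named here are given as a description, with no p. All changes below are on the log2(RPM + 1) scale, as male minus E9.5, with the standard error (SE) of the model, and the scale understates changes of low genes. The 95% intervals given for genes not called are of the change and not adjusted for the number of genes.

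**Figure D1:**
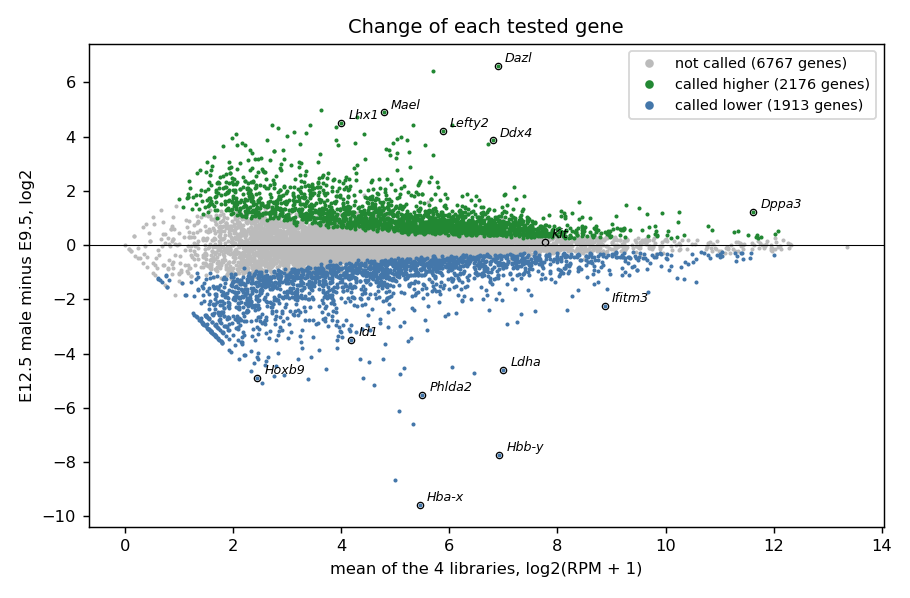
Change of each tested gene (E12.5 male minus E9.5, log2) against its mean level over the 4 libraries (log2(RPM + 1)). Each point is a gene, coloured by its call in limma at an adjusted p under 0.05, and circled genes are named in the text: 2176 genes were called higher and 1913 lower, with Dazl at 6.61 and Hba-x at -9.58.

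**Figure D2:**
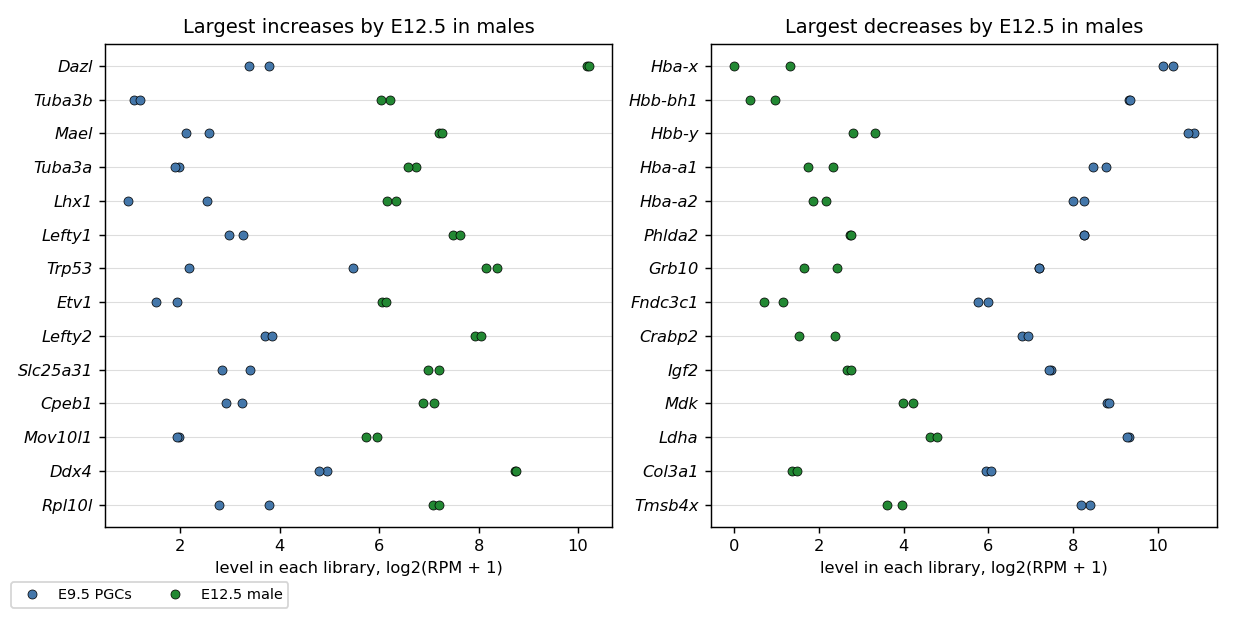
Level in each library (log2(RPM + 1)) of 14 of the largest increases and 14 of the largest decreases, taken from called genes with no overlap between groups and a mean of 50 RPM or more in one of them. Each point is 1 library. The points of a group lie close together for most genes, which the choice itself favours, with Trp53 at E9.5 as an exception (43.4 and 3.54 RPM).

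The RNA-binding protein gene Dazl, a licensing factor of gonadal germ cells, and Mael, a piRNA pathway gene, had the largest increases of their lists, while the embryonic globin genes Hba-x and Hbb-y had the largest decreases among the genes with a promoter sequence. Their promoter windows are shown to set genes at the opposite ends of the range of changes side by side. Each line gives the 250 bases before the annotated start (RefSeq, GRCm38.p6, which is mm10), read 5′ to 3′ on the gene's strand, with capitals for each CG and for the E-box CACGTG. Dazl, Mael and Hbb-y lie on the minus strand and Hba-x on the plus strand.
Dazl chr17:50293621-50293870: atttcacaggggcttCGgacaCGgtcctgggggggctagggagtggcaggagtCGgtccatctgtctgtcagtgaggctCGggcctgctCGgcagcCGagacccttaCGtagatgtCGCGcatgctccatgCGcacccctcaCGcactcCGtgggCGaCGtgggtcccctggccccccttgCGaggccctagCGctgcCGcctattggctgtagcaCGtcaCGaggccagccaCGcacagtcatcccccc
Mael chr1:166238745-166238994: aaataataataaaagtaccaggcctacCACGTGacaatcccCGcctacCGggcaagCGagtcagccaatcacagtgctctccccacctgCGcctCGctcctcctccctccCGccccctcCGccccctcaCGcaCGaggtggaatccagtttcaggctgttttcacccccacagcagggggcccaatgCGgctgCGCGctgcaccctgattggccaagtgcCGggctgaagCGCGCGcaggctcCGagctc
Hba-x chr11:32276350-32276599: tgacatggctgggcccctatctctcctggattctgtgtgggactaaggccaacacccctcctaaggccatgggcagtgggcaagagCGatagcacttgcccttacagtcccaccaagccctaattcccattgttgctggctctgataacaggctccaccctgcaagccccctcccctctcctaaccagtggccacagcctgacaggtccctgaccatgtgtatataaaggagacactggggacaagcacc
Hbb-y chr7:103853208-103853457: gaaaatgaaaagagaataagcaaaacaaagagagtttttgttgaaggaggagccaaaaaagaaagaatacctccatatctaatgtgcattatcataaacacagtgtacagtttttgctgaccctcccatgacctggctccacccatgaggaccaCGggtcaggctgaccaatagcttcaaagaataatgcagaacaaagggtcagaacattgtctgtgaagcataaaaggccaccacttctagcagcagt
The Dazl window held 20 CG and the Mael window 18, with 1 CACGTG in Mael, while each globin window held 1 CG. The windows of the germ cell gene Usp26, which also rose, and of the globin gene Hba-a1 are not printed. They held 5 and 4 CG, so not every large increase had a window rich in CG. Hba-x was at 1322 and 1109 RPM at E9.5 and 0 and 1.51 RPM in males (-9.58 ± 0.41), and it passed the filter only through the E9.5 libraries. Hbb-y, which passed without them, was at 1864 and 1669 RPM and 5.94 and 9.03 RPM (-7.72 ± 0.32, adjusted p = 2.76e-09). Both are erythroid markers, and the part of blood cells in their fall was not tested. A window was found for 8449 of the 10856 tested genes. The median number of CG was 17 over these genes, 16.5 over 18 genes of the gonadal germ cell list, and 10 over the 287 genes called lower with a change of -2 or below. Windows with under 5 CG made up 7.75% of the tested genes, 22.6% of those strong decreases and 11.8% of the 170 genes called higher with a change of 2 or above. The letters CACGTG, which read the same on both strands, were found in 5 of 18 windows of the germ cell list (27.8%) and 6 of 18 of the meiosis list (33.3%), against 8.82% of tested genes and 6.05% of all 27025 windows. GCGGGAA, searched on both strands, was in 22.2% and 27.8% of these lists' windows and in 7.61% of tested genes. TATAAA, searched on the gene's strand only, was in 9.06% of the strong decreases and 3.60% of tested genes. It was also in 5.88% of the 170 strong increases and 8.12% of all 27025 windows. These shares describe the windows only. Hormad1 stands in both the germ cell and the meiosis list.

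Genes of the gonadal germ cell programme were far higher at E12.5. Dazl was at 12.9 and 9.44 RPM in the E9.5 libraries and 1163 and 1185 RPM in the male libraries, a change of 6.61 ± 0.29 (adjusted p = 2.76e-09). Usp26, an X-linked deubiquitinase gene of the germ line (chromosome X, 51752667 to 51801233), was at 0.735 and 0.472 RPM at E9.5, under the level that a count of 0 allows, and at 30.6 and 30.4 RPM in males. Neither gene's libraries overlapped, and female libraries were close to the male ones for both (Dazl 1245 and 1191 RPM, Usp26 24.3 and 24.8 RPM). Slc25a31, the ADP/ATP carrier of germ cells, rose by 3.98 from 9.56 and 6.13 RPM to 126 and 147 RPM (adjusted p = 5.78e-08). Cpeb1, which binds the cytoplasmic polyadenylation element of mRNAs, rose by 3.91 from 6.62 and 8.49 RPM to 117 and 137 RPM (adjusted p = 4.39e-08). The transcription factor genes Dmrt1 and Sohlh2 rose by 3.39 and 3.44, Dmrt1 from 6.25 and 13.2 RPM to 105 and 107 RPM and Sohlh2 from 10.7 and 10.6 RPM to 117 and 133 RPM. Of the 33 genes of this list with a row, 22 were tested. One of these passed the filter only through the male libraries, and of the other 21, 19 were called higher and none lower, against 20.3% higher and 15.7% lower over all 10353 genes that passed without either group. At an unadjusted p under 0.05 in limma, the only tool run, none of the 22 was lower either. Ddx25 (95% interval -0.36 to 1.00) and Gsg2 (-0.04 to 1.16) did not pass the test. The 11 untested genes with a row included Tex13a and Dpep3, listed at 0 in all 4 libraries.

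Most genes of the piRNA pathway rose as well. Mael was at 3.31 and 4.95 RPM at E9.5 and 145 and 154 RPM in males (4.89 ± 0.34, adjusted p = 2.25e-07). The helicase gene Mov10l1, which acts in piRNA production, rose from 2.94 and 2.83 RPM to 52.5 and 61.4 RPM (3.89 ± 0.28, adjusted p = 3.32e-07). Asz1 and Gpat2, whose proteins sit at the mitochondrial surface, rose from 9.56 and 6.13 RPM to 96.6 and 101 RPM and from 10.7 and 6.60 RPM to 83.8 and 103 RPM. The PIWI proteins that carry piRNAs differed in level. Piwil2 rose by 2.28 from 18.8 and 18.4 RPM to 88.5 and 100.0 RPM, while Piwil4 was under the filter at 1.10 and 0.708 RPM and 7.50 and 4.21 RPM, and Piwil1 stayed at or under the level that a count of 0 allows in all 4 libraries. Of 19 tested genes, none of which needed either group to pass, 16 were called higher and none lower, with a median change of 1.67 (0.05 over all tested genes). At an unadjusted p under 0.05 in limma 18 were higher and none lower. Tdrd3 (0.66), Pld6 (0.38) and Exd1 (0.94) were not called.

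**Figure D3:**
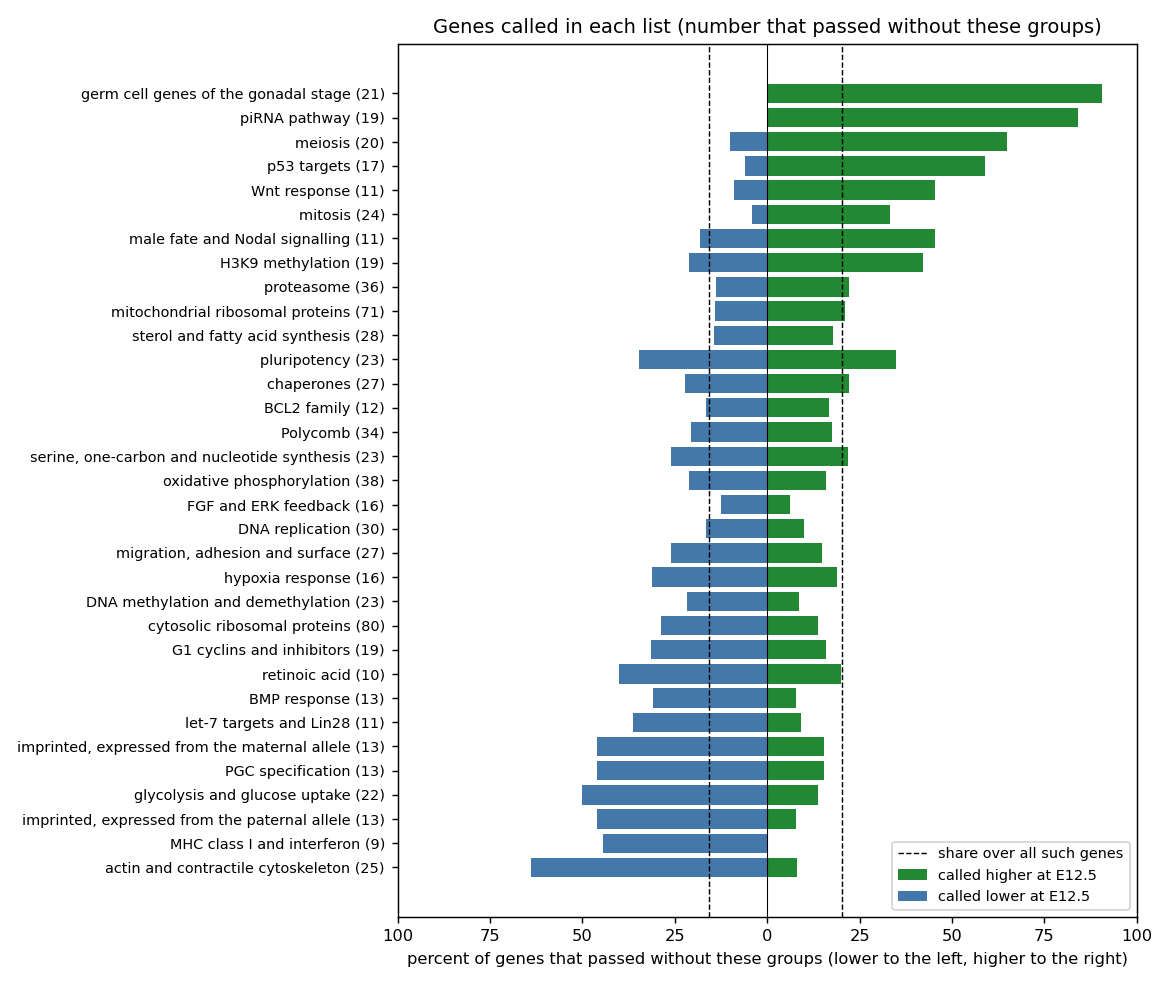
Percent of the genes of each list that were called higher (to the right) or lower (to the left) in males, over the genes that passed the filter without the libraries of either group, whose number is in parentheses. Dashed lines mark the 20.3% higher and 15.7% lower over all such genes. The germ cell and piRNA lists have no gene called lower, and the actin list has the largest share called lower, 16 of 25. Lists with under 9 such genes, the Hox genes among them, are left out.

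Genes of meiotic chromosomes rose in part, without the inducer of meiosis. Hormad1, of the chromosome axis, was at 3.68 and 4.72 RPM at E9.5 and 74.1 and 64.6 RPM in males (3.76 ± 0.26, adjusted p = 1.83e-07). Smc1b, of the meiotic cohesin, rose from 8.09 and 6.60 RPM to 93.5 and 100.0 RPM (3.55 ± 0.17, adjusted p = 8.14e-09), and Tex12, of the synaptonemal complex, from 2.94 and 0.708 RPM to 35.3 and 31.6 RPM. Sycp3, of the chromosome axis, rose by 2.00 to 16.3 and 19.6 RPM. Of the 20 tested genes 13 were called higher and 2 lower, against 20.0% and 17.6% of all tested genes, with a median change of 1.32. The lower ones were the cohesin gene Rec8, from a mean of 12.7 ± 0.335 RPM (SD, n = 2) to 4.06 and 1.81 RPM, and Syce2, from 449 and 447 RPM to 260.1 and 234 RPM. Stra8, which starts the meiotic programme, was at 0.735 and 0.236 RPM at E9.5 and 1.25 and 0.301 RPM in males, at or near the level that a count of 0 allows. Of these 20 genes, 6 were called lower in males than in females, against 6.68% of all tested genes. Smc1b was among them (162 and 176 RPM in females, male minus female -0.80, adjusted p = 0.00816 in limma).

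Nodal, its coreceptor and its antagonists rose in the male cells. Nodal, the ligand, was at 11.03 and 9.91 RPM at E9.5 and 22.5 and 30.4 RPM in males (1.25 ± 0.29, adjusted p = 0.00422), and its coreceptor gene Tdgf1 at 4.41 and 4.48 RPM and 28.4 and 18.1 RPM (2.12 ± 0.36, adjusted p = 4.26e-04). The Nodal antagonist Lefty1 rose from 8.64 and 6.84 RPM to 179 and 196 RPM, and its neighbour Lefty2 from 11.9 and 13.4 RPM to 241 and 264 RPM, changes of 4.43 ± 0.22 and 4.21 ± 0.33 (adjusted p = 1.35e-08 and 6.86e-07). How reads are split between these similar genes is uncertain. In each of these genes both male libraries were above both E9.5 libraries. Among the signal transducers, Smad2 rose (0.55) and Smad3 fell, from 46.3 and 44.1 RPM to 10.3 and 17.2 RPM (-1.69), as did the receptor gene Acvr1b (-0.96). Without E9.5 replicate 2 or without male replicate 2 the number of genes called lower was 1 in place of 2. One of the 12 tested genes passed the filter only through the male libraries. Of the other 11, 5 were called higher and 2 lower, against 20.3% and 15.7% of all genes that passed without either group. The later male regulators were near the limit of detection: Nanos2 was listed at 0 in both E9.5 libraries and at 1.88 and 1.81 RPM in males, and Dnmt3l at 0 in all 4.

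Of the regulators that specify PGCs, several fell and others did not pass the test. Tfap2c, a transcription factor of PGC specification, was at 217 and 225 RPM at E9.5 and 56.9 and 72.6 RPM in males (-1.77 ± 0.16, adjusted p = 1.89e-06), and lower than in females (129 and 152 RPM, adjusted p = 4.60e-04). Prdm14 fell by 0.46, from 80.1 and 82.1 RPM to 56.6 and 61.2 RPM (adjusted p = 0.0301). The interferon-induced membrane protein genes Ifitm3 and Ifitm1, early markers of PGCs, fell from 1053 and 994 RPM to 212 and 219 RPM and from 1322 and 1218 RPM to 761 and 725 RPM. Dppa3, whose reporter chose the cells, rose from 2013 and 2089 RPM to 4770.4 and 4846 RPM (1.23 ± 0.10, adjusted p = 1.24e-06). Tcl1, a coactivator of AKT kinase, rose from 74.3 and 78.3 RPM to 198 and 206 RPM. Prdm1 (68.6 and 65.1 RPM, 64.4 and 62.6 RPM, 95% interval -0.40 to 0.25), Kit (204 and 211 RPM, 226 and 224 RPM, -0.24 to 0.48) and Nanos3 (15.4 and 13.4 RPM, 11.9 and 14.8 RPM, -0.72 to 0.49) were not called. Of the 13 tested genes 2 were called higher and 6 lower, against 20.0% and 17.6% of all tested genes. Without any 1 of the 4 libraries, 3 were called lower, and the calls of Prdm14 and Lin28a were among those lost.

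Pluripotency genes were split. Sox2 was at 395 and 375 RPM at E9.5 and 169.7 and 194 RPM in males (-1.08 ± 0.11, adjusted p = 6.87e-06), and Klf2 fell from 135 and 164 RPM to 18.8 and 29.5 RPM (-2.61 ± 0.25). Pou5f1, which encodes OCT4, and Nanog fell less, by 0.47 and 0.50, and both calls were lost in some of the alternatives. Utf1 rose from 368 and 367 RPM to 1003 and 1049 RPM and Dppa4 from 86.8 and 88.2 RPM to 314 and 312 RPM, and their libraries did not overlap. Otx2, a transcription factor gene of the epiblast, was at 1.47 and 0 RPM at E9.5 and 15.0 and 16.3 RPM in males (3.40 ± 0.41, adjusted p = 3.04e-05), and was at 0 and 0.251 RPM in females (adjusted p = 4.97e-05 for the difference from males). Of 23 tested genes 8 were called higher and 8 lower, against 20.0% and 17.6% of all tested genes. Sall4 (95% interval -0.26 to 0.20) and Gdf3 (-0.43 to 0.35) were among the 7 not called. Of the genes controlled by let-7 and LIN28, the chromatin protein gene Hmga2 fell from 90.8 and 106 RPM to 9.38 and 5.12 RPM (-3.63 ± 0.35, adjusted p = 4.65e-06) and Trim71 rose from 55.4 and 61.3 RPM to 102 and 93.2 RPM (0.73 ± 0.13).

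The Hox genes, which pattern the axis of the body, were detected at E9.5 and largely not in males. Hoxb9 was at 26.1 and 32.1 RPM at E9.5 and listed at 0 in both male libraries, and Hoxb2 was at 14.3 and 12.7 RPM and 0. Of 39 Hox genes with a row, 32 had both E9.5 libraries above both male ones, against 28.9% of the 19998 genes above 0 in any library, and 26 were listed at 0 in both male libraries. The filter kept 17 of them, 16 only through the E9.5 libraries and 1, Hoxa10, only through the male ones. In a fit without the filter 31 of 38 were called lower and 1, Hoxa13, higher, against 12.2% and 10.5% of all genes in that fit. Hoxa13 was at 0.368 and 0.944 RPM at E9.5 and 2.19 and 1.81 RPM in males. Hoxa10 was at 2.94 and 5.66 RPM at E9.5 and 7.81 and 10.2 RPM in males. Of 10 tested transcription factor genes of posterior mesoderm, 6 were called lower, 1 higher (Lhx1, 4.50) and 3 not called. Among the lower ones, Cdx2, Meis1 and Meis2 passed the filter only through the E9.5 libraries. Of the 7 that passed without either group, 3 were lower and 1 higher, against 15.7% and 20.3% of all such genes. Cdx2, a caudal factor, was at 5.51 and 6.13 RPM and 0 and 0 RPM (-2.77). Outside that list, Meox1, a somite gene, was at 33.8 and 36.8 RPM and 0 and 0.602 RPM, and it passed the filter only through E9.5. The fibroblast, muscle and blood markers given above were higher in the same E9.5 libraries, and their part in these falls was not tested.

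Genes of the actin cytoskeleton were more often lower than higher in males. The thymosin gene Tmsb4x, which binds actin monomers, was at 339 and 291 RPM at E9.5 and 14.7 and 11.1 RPM in males (-4.51 ± 0.38, adjusted p = 1.12e-06), and the tropomyosin gene Tpm4 at 101 and 101 RPM and 3.13 and 5.42 RPM (-4.31 ± 0.27, adjusted p = 9.53e-08). Vim, the intermediate filament of mesenchymal cells, fell from 228 and 233 RPM to 51.0 and 64.1 RPM. Of the 25 genes of the actin and contractile cytoskeleton that passed without either group, 16 were called lower and 2 higher, Actn4 (0.39) and Msn (0.69), against 15.7% and 20.3% of all such genes, with a median change of -0.67. Without E9.5 replicate 1 or male replicate 2, 1 was called higher, and without E9.5 replicate 2 or male replicate 1, 0. Acta2, the smooth muscle actin gene, was at 24.0 and 18.3 RPM and 0.365 and 0.394 RPM and passed the filter only through E9.5. Actb, the cytoplasmic actin gene, was not called (555 and 779 RPM, 546 and 549 RPM, 95% interval -1.23 to 0.70). The summed fibroblast and muscle markers were higher in the same E9.5 libraries, and their part in the falls of contractile genes was not tested.
Of surface proteins, Cd24a was at 381 and 360.4 RPM at E9.5 and 51.9 and 44.3 RPM in males (-2.93 ± 0.24, adjusted p = 1.06e-06), and the Wnt5a receptor gene Ror2 at 61.8 and 72.9 RPM and 8.75 and 9.63 RPM (-2.74 ± 0.23, adjusted p = 1.06e-06). Its ligand gene Wnt5a, which passed the filter only through the E9.5 libraries, was at 33.1 and 37.3 RPM and 2.60 and 0.903 RPM. The cadherin genes Cdh1 and Cdh3 rose, from 4.96 and 5.90 RPM to 16.4 and 16.6 RPM and from 9.19 and 5.98 RPM to 42.5 and 44.9 RPM. Cdh11, a cadherin of mesenchyme that also passed only through E9.5, was at 19.9 and 15.7 RPM and 1.09 and 0.903 RPM. Sdc4, a heparan sulphate proteoglycan gene, rose from a mean of 13.3 ± 1.17 RPM (SD, n = 2) to 114 and 94.8 RPM (2.88 ± 0.19). Of 27 migration and adhesion genes that passed without either group, 4 were called higher and 7 lower, against 20.3% and 15.7% of all such genes. Cxcr4, the receptor for the chemokine that guides PGCs, was under the filter in both groups (2.21 and 4.48 RPM, 2.19 and 2.11 RPM), and Itgb1 (-0.32 to 0.50), Cfl1 (-0.23 to 0.19) and Rhoa (0.01 to 0.58) were not called.

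Many imprinted genes were lower in males, whichever parental allele is the active one. Phlda2, expressed from the maternal allele, was at 304 and 306 RPM at E9.5 and 5.63 and 5.72 RPM in males (-5.52 ± 0.14, adjusted p = 1.03e-11), and at 468 and 490.3 RPM in females. Grb10 fell from 145 and 146 RPM to 4.38 and 2.11 RPM (-5.17 ± 0.40, adjusted p = 6.29e-07), H19 from 122 and 133 RPM to 13.1 and 7.53 RPM (-3.55 ± 0.30), and Cdkn1c, a cell cycle inhibitor, from 66.9 and 71.9 RPM to 9.69 and 16.3 RPM. Among genes of the paternal allele, the growth factor gene Igf2 fell from 179 and 172 RPM to 5.31 and 5.72 RPM (-4.76 ± 0.38, adjusted p = 7.49e-07) and Ndn from 62.9 and 66.8 RPM to 25.9 and 24.1 RPM. Of 13 maternally expressed genes that passed without either group, 6 were called lower and 2 higher, and of 13 paternally expressed ones, 6 lower and 1 higher, against 15.7% lower and 20.3% higher over all such genes. The 2 maternally expressed genes called higher were Ascl2, from 2.57 and 0.944 RPM to 18.1 and 22.0 RPM, and Ube3a (0.65), and without E9.5 replicate 1, E9.5 replicate 2 or male replicate 2 only 1 was called higher. Of the paternally expressed genes, Usp29 rose from 1.10 and 0.708 RPM to 24.1 and 11.1 RPM, and Snrpn, which passed the filter only through males, was at 0.0283 and 0.0151 RPM and 10.9 and 6.82 RPM. Igf2r (-0.58 to -0.01) and Impact (-1.05 to 0.21) were not called. Igf2, H19 and Grb10 are also expressed by many other embryonic tissues, and the part of the tissue markers in these falls was not tested.

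Genes of glucose use fell more often than they rose. Ldha, which makes lactate from pyruvate, was at 640.1 and 620.0 RPM at E9.5 and 23.4 and 26.5 RPM in males (-4.61 ± 0.24, adjusted p = 1.43e-08), and its counterpart Ldhb rose from 19.5 and 19.8 RPM to 76.6 and 69.8 RPM (1.84 ± 0.23, adjusted p = 4.15e-05). The lactate exporter gene Slc16a3 fell from 53.7 and 57.3 RPM to 3.44 and 2.71 RPM (-3.80 ± 0.42), and Pgk1, an X-linked glycolytic enzyme gene, from 837 and 857 RPM to 270.1 and 274 RPM. The enzyme genes Gapdh (-0.43 to 0.21), Gpi1 (-0.26 to 0.22) and Hk2 (-0.62 to 0.56) were not called. Of 22 genes, none of which needed either group to pass, 11 were called lower and 3 higher, Ldhb, Hk1 (0.67) and Pdk1 (0.94), against 17.6% and 20.0% of all tested genes, with a median change of -0.84. Vegfa, which responds to low oxygen, fell from 19.12 and 14.9 RPM to 0 and 1.51 RPM, and Epas1, which encodes a hypoxia-inducible factor, rose from 4.41 and 4.72 RPM to 25 and 22.0 RPM. Of 38 genes of oxidative phosphorylation 6 were called higher and 8 lower, near the shares over all genes, and 2 higher without E9.5 replicate 2 and 3 without male replicate 2. The part of the tissue markers in the glycolysis falls was not tested.

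In the retinoic acid pathway the cellular binding proteins Crabp1 and Crabp2 fell. Crabp2 was at 109.9 and 122 RPM at E9.5 and 1.88 and 4.21 RPM in males (-4.91 ± 0.41, adjusted p = 1.24e-06), and Crabp1 at 118 and 123 RPM and 20.9 and 13.5 RPM (-2.77). Aldh1a2, which makes retinoic acid, fell from 26.5 and 34.4 RPM to 7.19 and 4.82 RPM. Its relative Aldh1a1, which passed the filter only through males, was at 0 and 0.236 RPM and 5.94 and 9.03 RPM. Of the receptors, Rara rose (1.37), and Rarb, which passed only through E9.5, was at 5.88 and 6.84 RPM and 0 and 0.301 RPM. Of 10 genes that passed without either group 2 were called higher and 4 lower, against 20.3% and 15.7% of all such genes. Over all 13 tested, 3 were higher, and 1 without E9.5 replicate 1 or without either male library. The fibroblast, muscle and blood markers were higher in the same E9.5 libraries, and their part in these falls was not tested.

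Some targets of BMP signalling were lower in males. Id1, an inhibitor of basic helix-loop-helix factors, was at 56.2 and 63.5 RPM at E9.5 and 4.06 and 4.82 RPM in males (-3.48 ± 0.38, adjusted p = 1.32e-05), and Msx2 at 55.5 and 64.5 RPM and 4.38 and 8.43 RPM (-3.09 ± 0.29, adjusted p = 4.07e-06). Id2 and Id3 fell by 1.93 and 1.23. Females had 139 and 154 RPM of Id1 and 71.5 and 75.2 RPM of Msx2, above the E9.5 libraries in each. Of 13 tested genes 4 were called lower and 1 higher, against 17.6% and 20.0% of all tested genes. The higher one was Smad7 (1.08), an inhibitor of the pathway, whose call was lost without E9.5 replicate 1 or male replicate 1. The receptor gene Bmpr1a was not called (-0.10 to 0.60). In the Wnt pathway the ligand gene Wnt3, which passed the filter only through males, was at 0 and 1.65 RPM at E9.5 and 21.3 and 24.4 RPM in males. Tcf7 rose from 22.1 and 20.8 RPM to 84.1 and 78.0 RPM, and Sp5, a target gene, from 3.31 and 4.48 RPM to 15.3 and 13.4 RPM. The feedback gene Axin2 fell (-1.02), from 9.56 and 13.9 RPM to 5.63 and 4.82 RPM. Of 11 genes that passed without either group 5 were called higher and 1 lower, against 20.3% and 15.7% of all such genes.

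Most genes known as targets of p53 rose. Pmaip1, which encodes the death protein NOXA, was at 1.59 and 1.297 RPM at E9.5 and 43.8 and 39.4 RPM in males (4.12 ± 0.37, adjusted p = 2.07e-06), and at 0.707 and 1.13 RPM in females (male minus female 4.48, adjusted p = 4.24e-06). Trp53inp1 rose from 32.0 and 34.7 RPM to 111 and 115 RPM (1.73 ± 0.11), Ccng1 from 27.2 and 25.7 RPM to 70.0 and 68.0 RPM, and Mdm2, which degrades p53, from 81.3 and 79.1 RPM to 151 and 151 RPM. Of 17 tested genes 10 were called higher and 1 lower, Perp (-1.04), against 20.0% and 17.6% of all tested genes. Without E9.5 replicate 1, 6 were called higher, and the call of Perp was lost without either E9.5 library or without male replicate 1. Bax was not called (-0.32 to 0.49). Trp53 itself was at 43.4 and 3.54 RPM at E9.5 and 328 and 283 RPM in males, and its change of 4.43 ± 0.73 was 2.78 without E9.5 replicate 2 and 6.07 without E9.5 replicate 1. Of the G1 regulators, the cyclin gene Ccnd1 fell from 32.0 and 31.6 RPM to 3.13 and 4.82 RPM and Cdk2 rose from 16.9 and 16.7 RPM to 44.1 and 50.3 RPM. The cyclin gene Ccnd2 was at 22.4 and 20.1 RPM and 1.25 and 1.81 RPM and passed the filter only through E9.5. Of 19 that passed without either group, 3 were called higher and 6 lower, against 20.3% and 15.7% of all such genes. Over all 22 tested, 8 were lower, and 4 without E9.5 replicate 1 or male replicate 1.

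Of 24 tested genes of DNA methylation and demethylation, 2 were called higher, 6 lower and 16 not called, against 20.0% higher and 17.6% lower over all tested genes. Without E9.5 replicate 1 or male replicate 2, 1 was higher, and without E9.5 replicate 2, 3 were lower. The demethylation enzyme Tet1 rose from 49.3 and 51.7 RPM to 126 and 128 RPM (1.32 ± 0.21, adjusted p = 3.28e-04) and Tdg, which excises oxidised methylcytosine, fell from 131 and 137 RPM to 39.9 and 34.5 RPM (-1.82 ± 0.15, adjusted p = 8.02e-07). Gadd45a fell from 68.2 and 72.4 RPM to 10.9 and 6.92 RPM. Dnmt1, the maintenance methyltransferase, rose by 0.64, its partner Uhrf1 was not called (-1.45 to -0.02), and Dnmt3a was not called (-0.62 to 0.66). The H3K9 methyltransferase genes Ehmt1 and Setdb1 rose by 1.17 and 0.82, while Ehmt2 and Suv39h1 were not called. The demethylase genes were split. Kdm4a, Kdm4c and Kdm3a fell by 1.36, 0.67 and 0.49, Kdm3b rose by 0.74, and Kdm1a and Kdm4b were not called. Of 19 genes of H3K9 methylation 8 were called higher and 4 lower, and 4 or 5 higher and 1 lower without either E9.5 library or without male replicate 1. Without male replicate 2, 2 were lower.

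Of 80 tested genes of cytosolic ribosomal proteins, 23 were called lower and 11 higher, against 17.6% and 20.0% of all tested genes, with a median change of -0.11. Without 1 of the 4 libraries 10 to 15 were lower and 4 to 6 higher. The largest falls were those of Rpl39 (-1.86), Rps27 (-1.72), Rps29 (-1.34) and Rps28 (-1.22). Of 71 mitochondrial ones 15 were called higher and 10 lower, Mrps24 (1.23) and Mrps21 (-1.10) among them, and 4 or 5 lower without 1 library. The testis paralogues Rpl10l and Rpl39l rose, from 5.88 and 12.7 RPM to 134 and 146 RPM and from 26.0 and 30.0 RPM to 369 and 389 RPM, while Rpl39 went from 597 and 571 RPM to 166 and 154 RPM. The split of reads between Rpl39 and Rpl39l is uncertain, as it is for Tuba3a and Tuba3b, tubulin genes that rose by 4.72 and 4.99.

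Which changes differ between the sexes was asked by testing males against females of E12.5. In all, 1297 genes (11.9%) were called, 572 higher (5.27%) and 725 lower (6.68%) in males. Of the genes called higher than E9.5 in males, 243 (2.24% of tested genes) were also above females, and of those called lower, 376 (3.46%) were also below females. Both comparisons use the same male libraries.

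**Figure D4:**
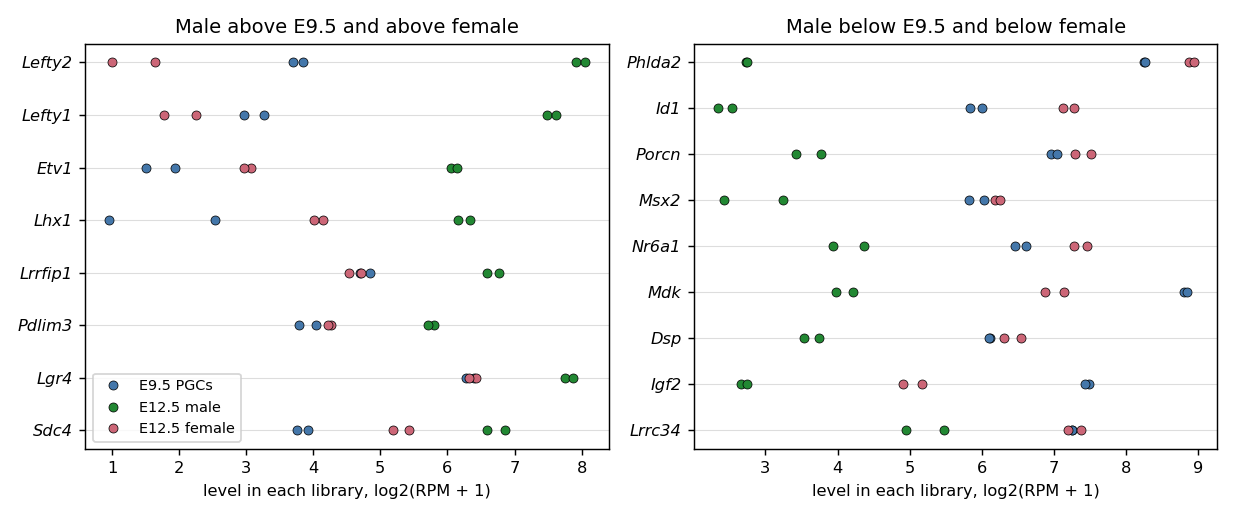
Level in each E9.5, E12.5 male and E12.5 female library (log2(RPM + 1)) of 8 genes higher and 9 genes lower in males than in both other groups, chosen by the smaller of their 2 differences. Each point is 1 library. In every gene shown both male libraries lie outside the range of the other 4.

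Lefty1 and Lefty2 were at 2.43 and 3.77 RPM and 2.12 and 1.01 RPM in females, below both E9.5 libraries in each, while males were above E9.5. The transcription factor genes Lhx1 (chromosome 11, 84517975 to 84525534) and Etv1 (chromosome 12, 38780082 to 38870483, GRCm38.p6) were highest in males. Lhx1 was at 4.78 and 0.944 RPM, 70.3 and 80.1 RPM and 16.7 and 15.1 RPM in the 3 groups, and Etv1 at 1.84 and 2.83 RPM, 65.2 and 69.7 RPM and 7.43 and 6.79 RPM. Lhx1 also marks the mesonephros, whose other 5 markers were at or under 1.51 RPM in the male libraries. Lgr4, a receptor that strengthens Wnt signals, was at 214 and 233 RPM in males against 84.6 and 78.7 RPM in females and 76.8 and 83.0 RPM at E9.5.
Among genes lower in males, Porcn, an X-linked acyltransferase that Wnt secretion needs, was at 124 and 131 RPM at E9.5, 9.69 and 12.6 RPM in males and 182 and 156 RPM in females (-3.41 ± 0.18 against E9.5, adjusted p = 1.88e-08). Nr6a1, an orphan nuclear receptor, was at 96.7 and 86.8 RPM, 14.4 and 19.6 RPM and 155 and 175 RPM, and the desmosome gene Dsp at 68.4 and 67.9 RPM, 10.6 and 12.3 RPM and 78.2 and 92.3 RPM. Mdk, a heparin-binding growth factor, had 449 and 458 RPM at E9.5, 17.5 and 14.8 RPM in males and 140.1 and 116 RPM in females, with females between the other groups.

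Genes that were at or under the level of a 0 count in both libraries of one group and at 20 RPM or more in both of the other were also listed, a set chosen after its values were seen. Only Usp26 and Hesx1 went from that level to at least 20 RPM in males. Hesx1, a homeobox gene, was at 0.368 and 0.472 RPM at E9.5, 26.9 and 33.1 RPM in males and 1.21 and 2.51 RPM in females. In the other direction were 11 genes, among them Hbb-bh1, Hoxb9, Meox1, Twist1, Actc1 (cardiac actin, 23.2 and 25.2 RPM and then 0), the pleiotrophin gene Ptn (20.6 and 25.5 RPM and 0.313 and 0.0232 RPM) and Prom1 (26.8 and 27.4 RPM and 0.313 and 0.301 RPM). Prom1 was at 11.2 and 11.3 RPM in females.

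X-linked genes were more often lower in males than autosomal ones. Of 409 tested X-linked genes, 32.8% were called lower and 18.8% higher, against 16.9% and 20.3% of 10088 autosomal genes. Their median change was -0.20, against 0.06. Genes that passed the filter only through the E9.5 or the male libraries are kept in these shares and medians, and no share without them was computed. Reads of X-linked genes summed to 33362 and 33401 RPM at E9.5, 29470 and 29392 RPM in males, and 42189 and 42341 RPM in females. The E9.5 libraries thus lay between the sexes, and males and females did not overlap. The median difference of males from females was -0.43 for X-linked genes, with 117 called lower in males and 5 higher. Since the sex of the E9.5 embryos was not given, a difference of sex and a change with stage cannot be told apart here. Xist was at 6.99 and 3.54 RPM at E9.5, 0.938 and 0 RPM in males and 0.606 and 0.503 RPM in females.

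**Figure D5:**
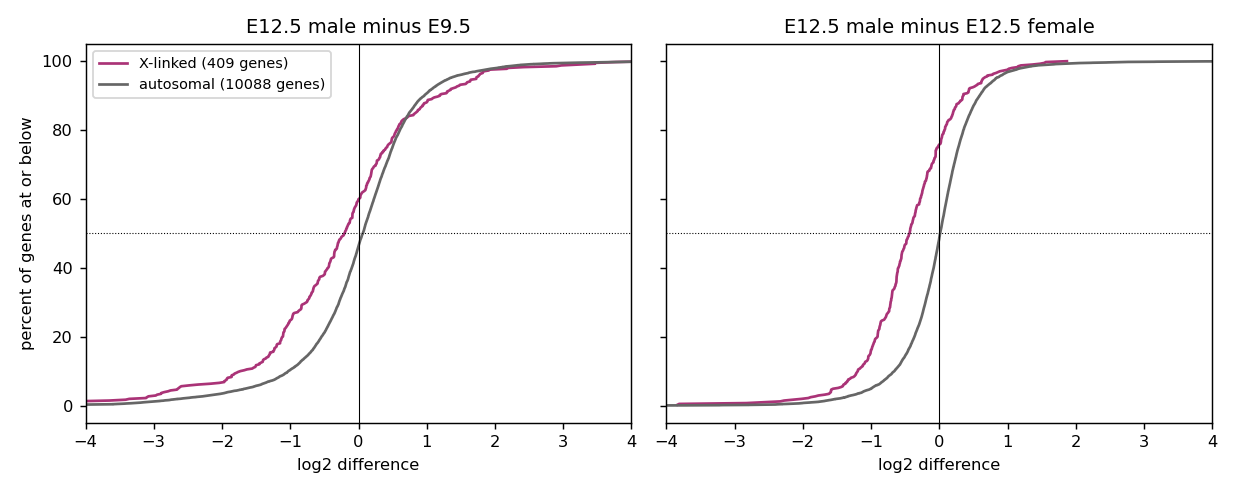
Cumulative percent of X-linked (409) and autosomal (10088) genes by log2 difference, for males against E9.5 (left) and against females (right), with the axis drawn from -4 to 4. The X-linked curve lies to the left, with medians of -0.20 and -0.43 against 0.06 and 0.01.

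The PGC-like cells, labelled d4c3, d4c5 and d4c7, were sorted at induction day 4 and then expanded on feeder cells. They were set beside these groups as a description, since they differ from the embryonic libraries in strain, reporter and RNA input (10 ng). Of all 2176 genes called higher in males, the mean level was nearer to males than to E9.5 in 36.9% at d4c3, 46.1% at d4c5 and 47.6% at d4c7. For all 1913 genes called lower these shares were 36.6%, 44.0% and 47.3%. Of the 223 called higher with a change of at least 2, 29.6%, 49.3% and 57.0% were nearer to males. Of the 389 called lower with a change of -2 or below, 65.6%, 74.3% and 75.8% were nearer to males. Of the 1913 lower genes, 289 passed the filter only through the E9.5 libraries. Fewer than 2 other libraries reached 5 RPM in these, so the filter itself favoured a level nearer to males. In the same way, 70 of the 2176 higher genes passed only through males, which favoured a level nearer to E9.5. All of these genes are kept in the shares, and no share without them was computed.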

How the data were processed

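The deposited table gives RPM per gene for 12 libraries. The labels describe 3′-end sequencing on a SOLiD instrument. Per the submitters' processing notes, tools were Cufflinks 2.2.0, TopHat 1.4.1 and cutadapt 1.3, and the build mm10. The deposited RPM are not counts, and 83.9 to 87.3% of low values in the embryonic libraries were whole reads (within 0.1 read), so no count test was run. RPM were taken as log2(RPM + 1). Spike-in RNAs were left out. One limma model (3.58.1, R 4.3.3, trended) with 6 group means was fitted over all 12 libraries, so the embryonic groups share a spread with the PGC-like cells, and p-values were Benjamini-Hochberg adjusted over 10856 genes at 0.05. On simulated data it recovered 43% of changes of 1 and 86% of changes of 2 (log2), with 10 false calls. Far fewer genes changed in the simulation than were called here, and each gene's spread was drawn at random from all genes. These shares therefore do not give the recovery in the real comparison.

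Named genes were the largest changes of all genes, the largest called changes of each list, those that also differed from females, and uncalled members. A few genes chosen this way are not reported here. The comparison and its 35 gene lists (963 entries, 824 tested) were chosen with earlier results of these data known. Of the 26218 gene rows, 24619 matched RefSeq for positions and promoters. Alternatives were other pseudocounts, filters, centring, library sets and single libraries left out.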

Additional observations from a re-analysis of the deposited data

Results flagged for a closer look

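The change from E9.5 differed between the sexes in 17 genes picked by the size of both differences. They were taken from genes called in limma both against E9.5 and against females, in the same direction. An adjusted p under 0.05 in both tests was thus set by the choice. Males were above females by 5.54 for Lefty1, 6.66 for Lefty2, 3.08 for Etv1 and 2.17 for Lhx1 (log2 scale). Smaller differences were those of Lrrfip1 (2.06), Pdlim3 (1.52), Lgr4 (1.44) and Sdc4 (1.41). Lrrfip1, which binds nucleic acids, was at 25 and 27.9 RPM at E9.5, 95.03 and 108 RPM in males and 25.2 and 22.1 RPM in females. Pdlim3, of the actin cytoskeleton, was at 15.4 and 12.7 RPM, 54.7 and 51.5 RPM and 18.2 and 17.6 RPM.

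Males were below females by these log2 differences: Phlda2 -6.17, Id1 -4.76, Porcn -3.81, Msx2 -3.38, Nr6a1 -3.22, Mdk -2.91, Dsp -2.79, Igf2 -2.34 and Lrrc34 -2.07. Lrrc34, a leucine-rich repeat gene, was at 152 and 152 RPM at E9.5, 30.0 and 43.4 RPM in males and 145 and 166 RPM in females. Both libraries of males lay outside the other 4 in each of the 17 genes, which the choice itself favoured. For Phlda2, Id1, Porcn, Msx2, Nr6a1 and Dsp both female libraries were above both E9.5 libraries, and for Lefty1 and Lefty2 both were below them.

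The ERCC spike-in rows, which no comparison uses, carried more reads in the E12.5 libraries than at E9.5. Their sum averaged 15452 RPM in the male libraries, was 12107 and 14003 RPM in the female libraries, and was 1372 and 628 RPM at E9.5. The labels give no amount of spike-in added, so total RNA per cell was not derived from it.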

How the results depend on the processing

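Leaving out 1 library at a time gave 2509 to 2842 genes called against E9.5 (1304 to 1457 higher, 1182 to 1385 lower) and 538 to 567 between the sexes (212 to 253 higher in males, 301 to 355 lower). The arm left with 1 library is then assumed to vary like the other groups. With only the 6 embryonic libraries, 2351 genes differed between the sexes (1101 higher, 1250 lower in males), and with a replicate block added 2316 (1083 and 1233). Against E9.5 the replicate block gave 5167 calls, 2841 of them higher, and 4 libraries alone gave 5338. Same-numbered libraries did not deviate together (r from -0.024 to 0.023), so they share only a number. Without the filter 4531 genes were called, with a stricter one 3065 and without the variance trend 3644. Of 158 named genes called, 133 were called in every alternative with a value.

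Median centring lowered every change by 0.055, which put Dnmt3l, listed at 0 in all 4 libraries, at -0.055 and the uncalled Acvr2a at -0.023. With 1 library left out, values of uncalled genes that changed sign ranged from -0.26 to 0.032 for Nanos3, -0.55 to 0.61 for Acvr2a, -0.067 to 0.25 for Itgb1, -0.088 to 0.049 for Cfl1, -0.018 to 0.22 for Cd47, -0.31 to 0.042 for Sdc1 and -0.36 to 0.82 for Fut4. Of 70 counts of list members called, 44 moved by over 1.5 times in some alternative. Depth limits values under about 1 RPM, where 3 reads or fewer stand behind a level. A pseudocount of 5 shrank changes of low genes, such as Usp26 to 2.66.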

Other observations

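Serine and lipid synthesis held single large changes. The list counts given here stand beside 20.0% called higher and 17.6% called lower over all tested genes. Phgdh, the first enzyme of serine synthesis, was at 93.9 and 82.2 RPM at E9.5 and 18.1 and 15.5 RPM in males (-2.32 ± 0.45, adjusted p = 0.00113 in limma), while 5 of 23 genes of serine, one-carbon and nucleotide synthesis were called higher and 6 lower, with 3 or 4 in each direction when any 1 library was left out. Scd1, a fatty acid desaturase, fell from 18.2 and 21.0 RPM to 1.88 and 3.99 RPM (-2.44), and of 28 sterol and fatty acid genes 5 were called higher and 4 lower. Without 1 library those calls numbered 1 to 3 higher and 2 to 3 lower. The small heat shock protein gene Hspb1 fell from 84.3 and 54.1 RPM to 6.88 and 6.92 RPM (-3.12). Psma8, the proteasome subunit of germ cells, rose from 1.84 and 1.89 RPM to 15.6 and 16.3 RPM (2.57), while 8 of 36 proteasome genes were called higher and 5 lower, and 1 or 3 lower without 1 library.

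Calls among genes of mitosis and DNA replication went in both directions, with 15 of 24 and 22 of 30 not called. Over all tested genes 37.7% were called, 20.0% higher and 17.6% lower. The share not called in mitosis was thus near that over all genes. Plk1, a mitotic kinase, rose by 0.62, and 8 of 24 mitosis genes were called higher and 1 lower, with 2 or 3 higher when 1 library was left out. Of 30 DNA replication genes 3 were called higher and 5 lower, Mcm2 of the replicative helicase among the higher ones (0.77), and 1 to 3 were lower without 1 library. Of 9 tested genes of class I antigen presentation and interferon response none was called higher in limma, nor at an unadjusted p under 0.05, and 4 were lower, 3 of them Ifitm genes and H2-K1 (-1.37). Among Polycomb genes, 6 of 34 were called higher and 7 lower, against 20.0% and 17.6% of all tested genes, Kdm2b (1.26) and Phc2 (-1.86) being examples, and 3 were higher without E9.5 replicate 1, E9.5 replicate 2 or male replicate 2, and 4 lower without the last. The early response gene Ier3 fell from 27.9 and 37.7 RPM to 4.38 and 6.32 RPM, and the homeobox genes Meis1 and Meis2, which passed the filter only through the E9.5 libraries, changed by -3.49 and -3.35.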
